A study of Mus musculus with 20 samples.

Results

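XY gonads of (129S1xB6)F1 mouse embryos were compared with XY gonads of C57BL/6J embryos at embryonic day 11.5, on 5 arrays of each group chosen by their titles, 10 of the 20 arrays of the series. The embryos had 17 to 21 tail somites, and each array held amplified RNA from the gonads of 1 embryo, 1 pair, dissected free of the mesonephros (the embryonic kidney beside the gonad). The C57BL/6J group is the inbred strain (B6), the (129S1xB6)F1 group is its hybrid with 129S1/SvImJ, and the labels name no transgene and no treatment for either. Gonad RNA was labelled with Cy5 and hybridised against 1 Cy3-labelled reference pool. The pool combined gonads (4 XY pairs and 3 XX pairs) with whole embryos (4 XY and 2 XX), all from matings of Sox9-ECFP(C57BL/6J) with CD-1 mice. Values are therefore log2 ratios of gonad to reference, and a value above 0 means more signal in the gonad than in the pool. The other arrays of the series were 5 of 129S1/SvImJ and 5 of the reciprocal hybrid, (B6x129S1)F1, and both are used here only to place the F1 values. Mouse crosses are by convention written with the mother first. An XY embryo of a 129S1 mother and a B6 father would carry the 129S1 X and the B6 Y chromosome, but the labels do not state the direction in words.

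At this stage the XY gonad leaves its bipotential state. Sry on the Y chromosome starts Sox9 in the supporting cells, which become Sertoli cells and pattern the testis, while WNT signalling through Wnt4, Rspo1 and beta-catenin drives the alternative, ovarian route and is held down in the testis. Primordial germ cells have just arrived in the gonad. They still express pluripotency genes such as Pou5f1 and are beginning to express the genes of the later germline, including those for the piRNA pathway, which silences transposons, and for the chromosome structures of meiosis.

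The arrays held 43379 gene spots with 41174 different probes, standing for 27670 genes or names. Between 78.4% and 88.3% of probes were well above background in Cy5 on the F1 arrays and between 81.7% and 85.9% on the C57BL/6J arrays. F1 arrays M3 and M6, the only 2 of the 10 on slide 5, were the dimmest. C57BL/6J arrays H1 and H3 were the only 2 on slide 1, and slides 2, 3 and 4 each held 1 array of each group. Arrays of 1 group correlated across genes at 0.789 to 0.913, so that no pair was a duplicate; genes are not independent replicates. The tissue was checked on its markers: Wt1, which marks the gonadal ridge, averaged 4.45 in C57BL/6J and 4.36 in the F1, and the list of neural and muscle genes lay between -2.60 and -1.94 on all 10 arrays. Xist differed by -0.02 (SE 0.11, limma adjusted p = 0.99), and Nnt, which carries a deletion in C57BL/6J, averaged -0.20 ± 0.20 (SD, n = 5) in C57BL/6J and -0.04 ± 0.18 (SD, n = 5) in the F1. Whether the Nnt probe lies in the deleted part was not determined.

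1 array stood apart. C57BL/6J array H4 had high ratios for genes that interferon induces, with a mean of 3.28 over the 19 tested genes of the interferon and TRIM list against 1.09 to 1.32 on the other 9 arrays. 15 of those 19 genes had their highest value of the 10 arrays on H4. Results of the germ cell, meiosis and interferon lists are given with and without that array, as are those of some single genes.

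Of 23307 genes tested with limma over all 20 arrays, 264 differed between (129S1xB6)F1 and C57BL/6J at an adjusted p under 0.05, which is 1.13% of those tested. Of these, 165 were higher in the F1 (0.708%) and 99 were lower (0.425%). The higher genes moved further: their median difference was 1.05 on the log2 scale against -0.71 for the lower genes, and 95 of the higher genes but 12 of the lower genes differed by at least 2-fold. The median difference over all genes tested was -0.01, and 47.3% of differences lay above 0. At an unadjusted p under 0.05 there were 1986 of the 23307 genes, the count against which those of the lists below are to be read. The 5 F1 arrays lay entirely above or entirely below the 5 C57BL/6J arrays for 532 genes, 2.28% of those tested, and 227 of the 264 called genes were among them.

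**Figure D1:**
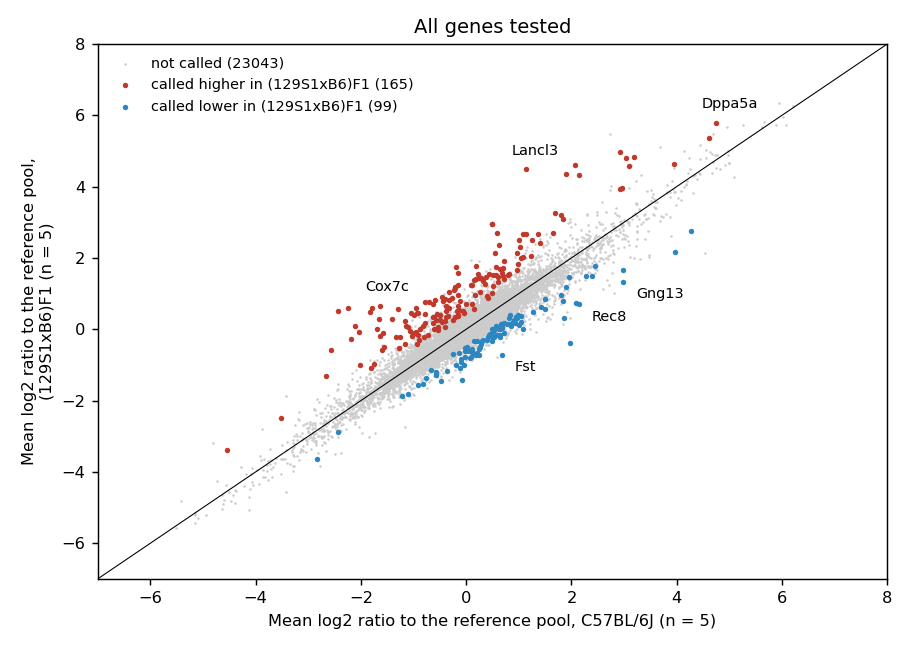
Mean log2 ratio to the reference pool of every gene tested, C57BL/6J on the x axis and (129S1xB6)F1 on the y axis, 5 arrays each; the line marks equal values. The 165 called higher genes spread further from the line than the 99 called lower ones, and Lancl3 and Cox7c are among the farthest above it.

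The slide entered the comparison in several ways. With the slide as a block on all arrays, 186 genes were called, 131 higher and 55 lower. Within slides 2, 3 and 4, the difference between the F1 array and the C57BL/6J array had the direction of the whole comparison for 260, 260 and 257 of the 264 called genes, and for 65.3%, 62.7% and 52.0% of all genes tested. The called genes were chosen on these same arrays, so this is a description. Restricting the fit to those slides, which drops arrays as well as adding the slide as a block, left 24 higher and 3 lower calls, and leaving out both slide 5 arrays of the F1 left 81 higher and 43 lower.

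Of the germ cell genes, 6 were higher in the F1 and 0 were lower. Of 32 listed genes 29 could be tested, 27 of them had a difference above 0, and their median difference was 0.65 on the log2 scale. The share of all genes tested that limma called higher was 0.708%. The other 23 germ cell genes did not pass, and at an unadjusted p under 0.05 there were 23 of the 29. The 6 are Stk31, a tudor-domain kinase of germ cells; Elavl2, an RNA-binding protein; Mael and Tdrd12, factors of the piRNA pathway; Dppa5a, an RNA-binding protein of pluripotent cells and early germ cells; and the pluripotency factor Sox2. The F1 and C57BL/6J arrays did not overlap for 12 of the 29, all higher in the F1, beside 2.28% of all genes tested in either direction. The mean ratio over the list ran from 1.67 to 2.00 on the 5 F1 arrays and from 0.80 to 1.41 on the 5 C57BL/6J arrays, with H4, the array of high interferon genes, the lowest. Without H4 the median difference was 0.56 and 3 members passed, Stk31, Elavl2 and Mael. The calls of Tdrd12, Sox2 and Dppa5a were then lost (limma adjusted p = 0.078, 0.091 and 0.097). The part of the interferon response of H4 in the result was not tested. RNA of a whole gonad cannot tell more germ cells apart from more of these transcripts per germ cell.

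Stk31 had the largest difference of the list in the main values, though not with normexp and loess, in the deposited table or with probes averaged. Its ratios were 5.03, 4.60, 4.47, 4.17 and 4.65 in the F1 and 3.51, 3.32, 3.81, 1.99 and 2.83 in C57BL/6J, so that every F1 array lay above every C57BL/6J array. The difference was 1.49 (SE 0.28), or 2.81-fold, with a limma adjusted p of 0.0068. It stayed past the threshold without H4 at 1.22 (adjusted p = 0.0096), although H4 had the lowest value of all. It did not pass with normexp background correction and loess normalisation (0.82, adjusted p = 0.28) or in the deposited table of log2 ratios (1.11, limma adjusted p = 0.62). Within slides 2, 3 and 4 it was 1.15, 1.77 and 3.04. Elavl2 gave the smallest p of the list. Its ratios lay between -1.46 and -1.14 in the F1 and between -3.12 and -2.37 in C57BL/6J, a difference of 1.37 (SE 0.19, limma adjusted p = 0.00031). Neurons also express Elavl2, and the reference pool holds whole embryos. Its second probe differed by 0.41, and the mean of both probes by 0.89 (limma adjusted p = 0.012). Within slides 2, 3 and 4 the difference was 1.07, 1.98 and 1.53.

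The probes of Stk31 and of Asz1, described below, are printed here as the oligonucleotides on which these germline values rest, each of 60 bases as deposited, with no base singled out.
Stk31: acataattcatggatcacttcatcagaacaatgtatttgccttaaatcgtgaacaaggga
Asz1: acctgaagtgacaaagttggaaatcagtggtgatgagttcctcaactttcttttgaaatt

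The other 4 called members passed in fewer of the alternative fits. Mael averaged 1.44 ± 0.53 (SD, n = 5) in the F1 and 0.27 ± 0.17 (SD, n = 5) in C57BL/6J, a difference of 1.17 (SE 0.25, limma adjusted p = 0.021). Dppa5a averaged 5.79 in the F1 and 4.74 in C57BL/6J and differed by 1.05 (SE 0.25, adjusted p = 0.039). Its second probe differed by 0.67, and there the groups overlapped (4.05 to 5.00 in the F1, 2.69 to 4.62 in C57BL/6J). The mean of both probes differed by 0.86 (limma adjusted p = 0.19), and the Dppa5a call was lost in 14 of 24 alternative fits. Tdrd12 differed by 1.01 (SE 0.23, limma adjusted p = 0.034) and Sox2 by 1.04 (SE 0.24, adjusted p = 0.038), or by 0.64 with normexp and loess (adjusted p = 0.55). Sox2 lay far below the pool, which holds whole embryos, at -2.48 in the F1 and -3.52 in C57BL/6J, with 129S1/SvImJ at -3.54. The Sox2 call was lost in 17 of 24 alternative fits. Without both slide 5 arrays of the F1, 2 of the 6 calls were left, Stk31 at 1.61 (limma adjusted p = 0.031) and Elavl2 at 1.38 (adjusted p = 0.0052). Leaving out 1 array gave between 2 and 6 calls, with 2 without M3, M6 or H2 and 3 without L4 or H4, and 0 passed in limma on the 3 slides that hold both groups, with 21 at an unadjusted p under 0.05. There the median difference of the list was 0.53, 0.43 and 0.99 on slides 2, 3 and 4.

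Several widely used germ cell markers did not pass. Pou5f1, the pluripotency factor, was higher on every F1 array than on any C57BL/6J array (2.56 to 3.70 against 1.54 to 2.22), but its difference of 1.13 (SE 0.33) did not pass (limma adjusted p = 0.13). Ddx4, the germline RNA helicase, differed by 1.00 (SE 0.34, adjusted p = 0.25), Nanog by 0.85 (SE 0.26, adjusted p = 0.16), Kit by 0.44 (SE 0.19, adjusted p = 0.50) and Dppa3 by 0.42 (SE 0.21, adjusted p = 0.62). On Ddx4, array K2 of C57BL/6J read 4.34, inside the F1 range of 3.63 to 4.89, while the other C57BL/6J arrays read 2.75 to 3.20. Nanos2, which starts later in male germ cells, and Fut4 had differences of -0.05 and -0.10 and were the 2 members below 0.

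Dazl, an RNA-binding protein that licenses germ cells for the germline programme, depended on the probe. The brighter probe differed by 0.89 (SE 0.31, limma adjusted p = 0.27). The second probe read 4.91, 4.98, 5.22, 6.74 and 7.26 in the F1 and 4.13, 2.09, 3.59, 1.98 and 4.34 in C57BL/6J, with no overlap between groups and a difference of 2.60. Averaging both probes gave 1.74 with an adjusted p of 0.015 in the same limma fit.

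**Figure D2:**
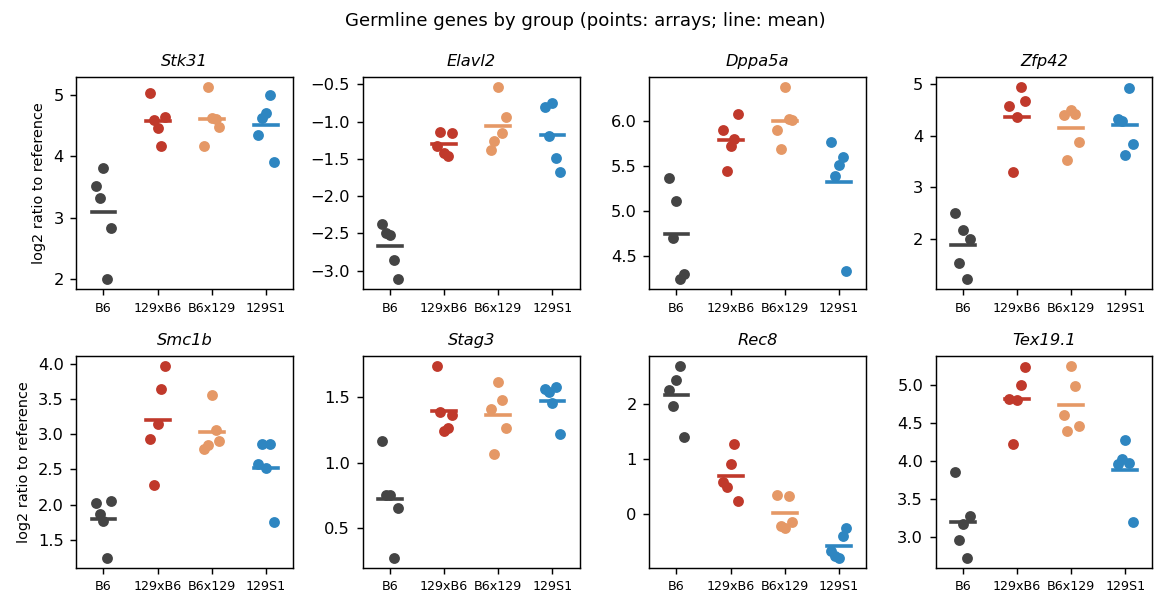
Log2 ratio to the reference pool of 8 germline genes on each array (points) with group means (lines), from left to right for C57BL/6J, (129S1xB6)F1, (B6x129S1)F1 and 129S1/SvImJ. The (129S1xB6)F1 points lie above the C57BL/6J points in every panel but Rec8, where they lie below, with group means of 2.15 in C57BL/6J and -0.59 in 129S1/SvImJ.

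Called meiotic genes went in both directions. Of 13 listed genes 10 were tested, with a median difference of 0.29. In the limma fit 4 were higher in the F1 and 1 was lower, beside 0.708% and 0.425% of all genes tested. Without H4 there were 3 higher and 2 lower, and without both slide 5 arrays of the F1 1 higher and 1 lower. Of the higher ones, Smc1b and Stag3 are cohesin subunits of meiotic chromosomes, as is Rec8, the lower one. Sycp3 forms the axis of the synaptonemal complex, and Tex12 is part of its centre. Smc1b read 2.94, 2.28, 3.14, 3.64 and 3.97 in the F1 and 2.02, 1.87, 1.78, 1.24 and 2.05 in C57BL/6J, a difference of 1.40 (SE 0.27, limma adjusted p = 0.0088). The 2 dim slide 5 arrays of the F1 were the 2 highest. Without them the difference was 1.00 and the adjusted p was 0.14, and within slides 2, 3 and 4 it was 1.27, 0.24 and 1.69. Stag3 differed by 0.68 (SE 0.14, adjusted p = 0.018; 0.74 and 0.073 without those arrays) and Tex12, whose groups overlapped, by 0.47 (SE 0.11, limma adjusted p = 0.038). The Tex12 call was lost without any of 7 single arrays, among them H4 (0.44, limma adjusted p = 0.087). With normexp and loess its difference was 0.24 (limma adjusted p = 0.37). Sycp3 was not well above background on any C57BL/6J array but was on 4 of the 5 F1 arrays. It thus entered the test through the F1 alone. Its log2 ratio differed by 1.28 (SE 0.24, limma adjusted p = 0.008). A bound on its Cy5 signal, which has no test of its own, put it at least 1.89-fold higher in the F1. That bound compares the F1 mean with the lowest signal well above background on each C57BL/6J array, or with the probe's own signal where higher, in Cy5 after loess and Aquantile normalisation, and it is open to dye bias because dyes were not swapped. The bound holds for that normalisation only. The log2 ratio of Sycp3 differed by 0.32 with normexp and loess (limma adjusted p = 0.046) and by 0.00 in the deposited table of log2 ratios (adjusted p = 1).

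Rec8, another meiotic cohesin subunit, was lower. It read 0.58, 0.49, 0.91, 1.26 and 0.23 in the F1 and 2.26, 1.96, 2.44, 2.70 and 1.40 in C57BL/6J. The groups did not overlap, and the difference was -1.46 (SE 0.22, limma adjusted p = 0.00092), a ratio of 2.75-fold. Its second probe differed by -0.80. 129S1/SvImJ averaged -0.59, and (B6x129S1)F1 averaged 0.01, so that Rec8 had its highest level of the 4 groups in C57BL/6J. Dmc1, the meiotic recombinase, was 0.71 lower in the F1 (SE 0.18), which did not pass (adjusted p = 0.063). It passed without H4, which had the lowest C57BL/6J value, at -0.84 (limma adjusted p = 0.016). Stra8, the retinoic acid target that starts meiosis in XX gonads, differed by -0.14 (SE 0.14, limma adjusted p = 0.92).

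The promoters of the 4 meiotic genes that were higher are printed because each holds the letters GCGGGAA on 1 strand, a core of E2F-type sites, shown in capitals in the orientation of the gene. They come from RefSeq (GRCm38.p6), with the first base of the gene as the start. Sycp3 is shown at chr10:88459400-88459486 on the plus strand, Smc1b at chr15:85131959-85132045 on the minus strand, Tex12 at chr9:50561367-50561453 on the minus strand, and Stag3, whose match lies across the start, at chr5:138280495-138280523 on the plus strand.
Sycp3: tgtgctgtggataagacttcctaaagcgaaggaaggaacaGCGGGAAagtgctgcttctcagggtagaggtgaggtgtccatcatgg
Tex12: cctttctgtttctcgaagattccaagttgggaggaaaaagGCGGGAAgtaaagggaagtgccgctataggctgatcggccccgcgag
Smc1b: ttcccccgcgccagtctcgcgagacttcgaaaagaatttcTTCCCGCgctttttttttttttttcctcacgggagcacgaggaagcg
Stag3: tatcccgtgccTTCCCGCgtttttttcta
The capitals are GCGGGAA or its reverse complement TTCCCGC, searched on both strands in windows of 300 bases from 250 before to 50 after the start. Those letters stand in 4.60% of all 32851 promoter windows and in the windows of 7.97% of the 14195 tested genes with an entry. Of 102 called higher genes with an entry 9 hold them, a share of 8.82% that is near that background, among them the 4 above, Slc25a31, L3mbtl4 and Myo6, and none of 53 called lower genes does. Among the meiotic genes that were not called higher, Hormad1 and Msh5 hold them too. The letters were chosen after the values of these genes were seen, and a match in sequence describes the window only.

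Other called genes known from the germline are given singly, since they belong to no list. By the naming rule, which took the 12 largest non-overlapping calls in each direction and passed over 8 clone or predicted names each way, the higher set includes Zfp42, Asz1, Uba1y and Rpl39l. Zfp42, also known as Rex1, a zinc finger protein of pluripotent cells and germ cells, averaged 4.37 ± 0.63 (SD, n = 5) in the F1 and 1.89 ± 0.51 (SD, n = 5) in C57BL/6J. The difference was 2.47 (SE 0.30, limma adjusted p = 8.8e-05), or 5.55-fold. A second probe for it read 3.63 to 5.10 in the F1 and -0.53 to 0.55 in C57BL/6J, a difference of 4.43. The 2 probes overlap by 20 bases, TGTGCTATTGAAGGGGATGG, and so are not independent readings.

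Asz1, which anchors the piRNA machinery at mitochondria, differed by 2.19 (SE 0.45, limma adjusted p = 0.016). Its call was lost in 7 of 24 alternative fits, among them those without M6 and with normexp and loess (1.11, adjusted p = 0.060). Without both slide 5 arrays of the F1 it was 1.93 (limma adjusted p = 0.18), and on slides with both groups 2.18 (adjusted p = 0.25). Rpl39l, a ribosomal protein gene used in the male germline, was 3.44-fold higher (SE 0.30 on the log2 scale, adjusted p = 0.0025). Other germline genes were picked after their values were seen. Tex19.1, which restrains transposons in germ cells, differed by 1.63 (SE 0.23, limma adjusted p = 0.00049), Nlrp4c by 1.59 (SE 0.24, adjusted p = 0.00083), the translational regulator Cpeb1 by 1.49 (SE 0.25, adjusted p = 0.0031), Gpat2 by 1.57 (SE 0.32, adjusted p = 0.014) and the piRNA factor Exd1 by 1.24 (SE 0.18, limma adjusted p = 0.00055). Slc25a31, a germline ADP/ATP carrier, differed by 0.90 (adjusted p = 0.038), a call lost without any of 8 single arrays, and the nodal-pathway gene Lefty2 by 0.89 (limma adjusted p = 0.0054).

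Germ cell genes in the reciprocal hybrid are given side by side, since both comparisons use the same C57BL/6J arrays. The median difference of the 29 germ cell genes from C57BL/6J was 0.51 for (B6x129S1)F1 and 0.16 for 129S1/SvImJ, against 0.65 for (129S1xB6)F1. Group means of Stk31 were 4.59 in (129S1xB6)F1, 4.61 in (B6x129S1)F1 and 4.52 in 129S1/SvImJ, against 3.09 in C57BL/6J. Dppa5a averaged 5.79, 6.00 and 5.32 in the same order, against 4.74.

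**Figure D3:**
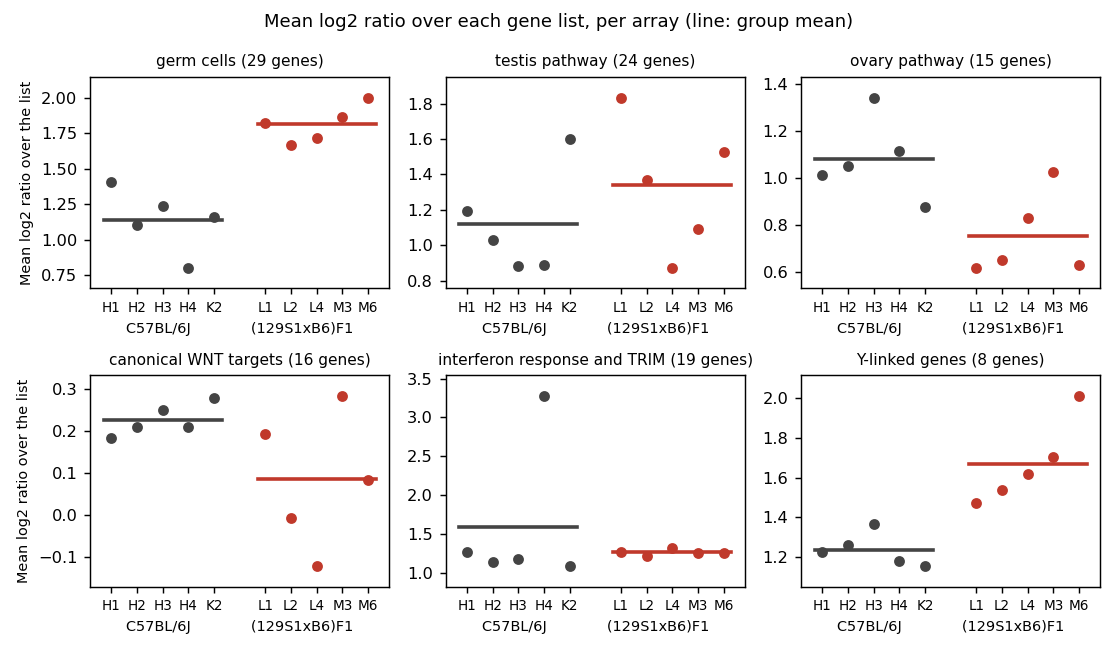
Mean log2 ratio over the tested genes of 6 lists on each array of C57BL/6J (grey) and (129S1xB6)F1 (red); lines are group means. The germ cell and Y-linked panels separate the groups, the testis panel does not, and array H4 stands alone at 3.28 in the interferon panel. Of the 8 Y-linked genes, 7 were not called, and the groups did not overlap for 1 only, Uba1y (difference 2.07).

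Genes of the testis pathway did not pass the test. Of 25 listed genes 24 were tested and 0 were called in limma, with 3 at an unadjusted p under 0.05. Their median difference was 0.20, and 18 lay above 0. Sry averaged 0.80 ± 0.14 (SD, n = 5) in the F1 and 0.54 ± 0.51 (SD, n = 5) in C57BL/6J, a difference of 0.27 (SE 0.22, limma adjusted p = 0.87); its probe was well above background on 3 F1 arrays and 4 C57BL/6J arrays. Sox9 read 1.32, 1.08, 0.26, 0.11 and 0.11 in the F1 and 0.62, 0.53, 0.59, 0.09 and 1.43 in C57BL/6J. Both groups spread over a similar range, and the difference was -0.08 (SE 0.38, limma adjusted p = 0.99). Its sign turned in several alternative fits, to as much as 0.25 when its 3 probes were averaged.

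Dhh, a hedgehog ligand, read 2.54 to 5.00 in the F1 and 1.43 to 5.25 in C57BL/6J, a difference of 0.91 (SE 0.84, limma adjusted p = 0.90). Amh, which makes the female duct regress, differed by 0.28 (SE 0.29, adjusted p = 0.92), and Fgf9, which sustains Sox9, by 0.47 (SE 0.37, adjusted p = 0.85). The smallest adjusted p of the list was 0.33, for Vnn1, which was lower on every F1 array (0.47 to 0.68) than on any C57BL/6J array (0.78 to 1.08). Pdgfa and Etd had differences of 0.62 (SE 0.25) and 0.58 (SE 0.38), and Gadd45g, which acts upstream of Sry, of -0.29 (SE 0.13). Dmrt1, which keeps male fate later on, differed by -0.02 (SE 0.24). The list mean ran from 0.87 to 1.83 on the F1 arrays and from 0.88 to 1.60 on the C57BL/6J arrays, so the groups overlapped. Within slides 2, 3 and 4 its median difference was -0.14, -0.32 and 0.87.

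In the ovary pathway, 2 genes were lower in the F1 and 0 were higher, beside 0.425% of all genes tested that were called lower. Of 18 listed genes 15 were tested; 11 lay below 0 and the median difference was -0.20. The 2 called genes are Fst and Gng13. Fst encodes follistatin, which binds activin and in the XX gonad is a WNT target that blocks male-type vessel formation. It read -0.57, -0.72, -0.37, -0.28 and -1.61 in the F1 and 0.62, 0.67, 1.30, 1.06 and -0.26 in C57BL/6J. The groups nearly met, with M3 at -0.28 and K2 at -0.26, and the difference was -1.39 (SE 0.28, limma adjusted p = 0.012), or 2.62-fold. Without both slide 5 arrays of the F1 it was -1.23 (adjusted p = 0.069), and within slides 2, 3 and 4 it was -1.04, -0.46 and -1.63.

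Gng13, a G protein gamma subunit, read 1.64, 0.91, 1.30, 1.36 and 1.40 in the F1 and 3.06, 2.38, 3.41, 2.59 and 3.49 in C57BL/6J. All F1 arrays lay below all C57BL/6J arrays. The difference was -1.66 (SE 0.28, limma adjusted p = 0.0025), or 3.17-fold, and it passed the threshold in each of the fits without 1 array. Within slides 2, 3 and 4 it was -1.08, -2.58 and -0.94. The mean of 129S1/SvImJ was -0.38, below that of the F1 at 1.32. For Fst, 129S1/SvImJ averaged -0.94, (B6x129S1)F1 -0.93 and (129S1xB6)F1 -0.71, against 0.68 in C57BL/6J. The probes of these 2 genes, on which the only calls of the ovary list rest, are printed as deposited.
Fst: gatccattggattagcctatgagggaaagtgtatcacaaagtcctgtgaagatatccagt
Gng13: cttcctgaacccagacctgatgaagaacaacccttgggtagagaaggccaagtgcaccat

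The upstream signals of that pathway did not pass. Wnt4 differed by -0.43 (SE 0.23, limma adjusted p = 0.67) and Rspo1, which strengthens WNT signals, by -0.32 (SE 0.19, adjusted p = 0.73). Bmp2, an early XX-enriched ligand, lay lower on every F1 array (0.50 to 1.11) than on any C57BL/6J array (1.11 to 2.05), if only just, with a difference of -0.68 (SE 0.27, limma adjusted p = 0.42). Foxl2, the later ovarian transcription factor, averaged 0.11 and 0.06. Of 17 canonical WNT targets 16 were tested, 13 lay below 0 with a median of -0.16, and 0 were called in limma, with 2 at an unadjusted p under 0.05. Their farthest member, Sp5, read 1.10 to 2.22 in the F1 and 2.06 to 2.71 in C57BL/6J (difference -0.61, SE 0.24, adjusted p = 0.39). Ccnd1 and Rnf43 had differences of -0.28 (SE 0.12) and -0.37 (SE 0.25).

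**Figure D4:**
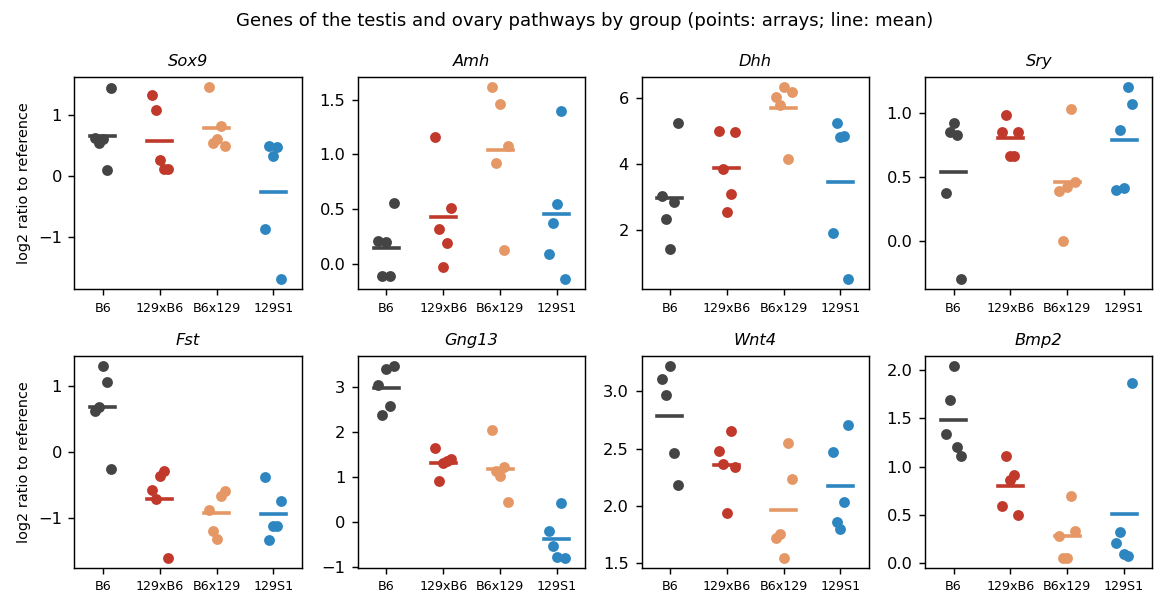
Log2 ratio to the reference pool of 4 testis pathway genes (top) and 4 ovary pathway genes (bottom) on each array (points) with group means (lines), from left to right for C57BL/6J, (129S1xB6)F1, (B6x129S1)F1 and 129S1/SvImJ. Sox9, Amh, Dhh and Sry overlap between C57BL/6J and (129S1xB6)F1, whereas Fst and Gng13 are lower on all 5 F1 arrays.

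Regulators of the bipotential gonad, which specify the gonad before its sex is set, showed 0 calls in limma among 19 tested (2 at an unadjusted p under 0.05), with a median of -0.16. Gata4 differed by -0.60 (SE 0.32, adjusted p = 0.67) and Lhx9 by -0.34 (SE 0.18, adjusted p = 0.68). Six4, which acts upstream of Sry, had a difference of 0.94 (SE 0.26, limma adjusted p = 0.10) with a probe well above background on 5 F1 arrays but 2 C57BL/6J arrays.

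Markers of other cell types gave 0 calls in limma. This held for the endothelial (14 genes tested), erythroid (12), macrophage (14), mesonephros and duct (13), interstitial (14), steroidogenic (12) and neural and muscle (12) lists. At an unadjusted p under 0.05 there were 3 mesonephros genes, 1 each of the macrophage, steroidogenic and neural lists, and 0 of the others, with median differences from -0.20 for macrophages to 0.12 for steroidogenic genes. The mesonephros list is the one that would show carried-over duct. It ran from -0.25 to 0.46 on the F1 arrays and from -0.21 to 0.24 in C57BL/6J, and its closest member to a call was Lhx1 (difference 0.52, SE 0.14, limma adjusted p = 0.081). Larger differences with wider errors were those of Cdh16 (1.16, SE 0.82) and Cdh1 (0.84, SE 0.38), while 5 members lay above 0 and 8 below. The erythroid list varied with the embryo, from -0.77 to 1.55 in the F1 with M6 the highest, and from -0.33 to 0.63 in C57BL/6J. The part of these cell types in the calls was not tested. Lists for hypoxia and glycolysis, stress and immediate early genes, FGF targets, imprinted genes, retinoic acid and extracellular matrix likewise held 0 calls in limma, with between 0 and 7 genes a list at an unadjusted p under 0.05. Their members nearest to the threshold included Ndrg1 at -0.57 (SE 0.14, adjusted p = 0.054), Etv4 at 0.91 (SE 0.29, adjusted p = 0.19) and Snrpn at 0.63 (SE 0.23, limma adjusted p = 0.32). The activin and BMP list had 1 called member of 22, Fst.

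For several genes far from the line of equal values, the level in the 129S1/SvImJ strain lay on the side of the F1. Lancl3, an X-linked gene related to bacterial lantibiotic cyclases, differed most of the genes named. It read 3.61, 5.12, 4.29, 5.16 and 4.28 in the F1 and 1.42, 0.88, 0.71, 2.01 and 0.64 in C57BL/6J, a difference of 3.36 (SE 0.34, limma adjusted p = 1.1e-05), or 10.3-fold. 129S1/SvImJ averaged 4.71 and the reciprocal (B6x129S1)F1 1.62, so that each hybrid was close to the strain named first in its cross. The 2 hybrids differed by 2.88 (SE 0.34, adjusted p = 0.00083). Within slides 2, 3 and 4 the difference from C57BL/6J was 3.41, 4.47 and 1.60, and with normexp and loess it was 2.14 (limma adjusted p = 0.0033).

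Between the 2 hybrids, 2 of 23307 genes passed in limma (0.00858%), Lancl3 and BC022654, a transcript known by its clone accession. BC022654 averaged -0.82 in (129S1xB6)F1 and -0.49 in 129S1/SvImJ, against 0.07 in C57BL/6J and 0.135 in (B6x129S1)F1. Its difference between hybrids was -0.95 (adjusted p = 0.00083), and the table of genes gave it no chromosome. With normexp background correction and loess normalisation, no gene passed in that limma comparison, and 583 had an unadjusted p under 0.05, against 839 in the main values.

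On the X chromosome, 10 of 623 genes tested differed between (129S1xB6)F1 and C57BL/6J, 7 higher and 3 lower (1.61%, beside 1.11% of autosomal genes). Besides Lancl3, the germline genes Rhox13 and Tex13b were higher, by 1.10 (SE 0.22, limma adjusted p = 0.012) and 1.02 (SE 0.21, adjusted p = 0.016), and so was 8030474K03Rik by 0.97 (adjusted p = 0.010). With normexp and loess these were 0.65, 0.37 and 0.51, and the calls of Rhox13 and Tex13b were lost (limma adjusted p = 0.087 for both). Slc10a3 was lower by 0.60 on the log2 scale (difference -0.60, SE 0.11, limma adjusted p = 0.0045). It averaged -0.15 in (129S1xB6)F1 and 0.42 in (B6x129S1)F1, a difference between hybrids of -0.57 that did not pass (adjusted p = 0.29). Cldn34c1 was lower with a difference of -0.50 (SE 0.09, limma adjusted p = 0.0047). On the Y chromosome, 1 of 15 genes differed. Uba1y, a ubiquitin-activating enzyme expressed in male germ cells, was higher in the F1 by 2.07 (SE 0.35, adjusted p = 0.0025). Its mean over (129S1xB6)F1 was 4.98, against 4.57 in (B6x129S1)F1 and 4.04 in 129S1/SvImJ. The mean over the 8 tested genes of the Y-linked list, Uba1y included, ran from 1.47 to 2.01 on the F1 arrays and from 1.15 to 1.37 in C57BL/6J. Uba1y was the only 1 of the 8 whose groups did not overlap, and the other 7 were not called. Eif2s3y and Zfy2 had differences of 0.32 (SE 0.16) and 0.25 (SE 0.12) and did not pass.

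Among autosomal genes, Cox7c, a small subunit of cytochrome c oxidase, had the smallest p of the genes named. It read 0.46, 0.28, 0.81, 0.95 and 0.82 in the F1 and -1.75, -1.72, -1.98, -1.49 and -1.29 in C57BL/6J. The difference was 2.31 (SE 0.18, limma adjusted p = 3.1e-07), or 4.95-fold, and it was the only call among 29 genes of oxidative phosphorylation, whose median difference was 0.04. Sdhb, the next of that list, had a difference of -0.35 (SE 0.10, adjusted p = 0.14), and passed without H4 (-0.41, limma adjusted p = 0.048). Cox7c averaged 1.34 in 129S1/SvImJ and 0.74 in the reciprocal hybrid.

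Other autosomal genes were several-fold higher. Rbm45, an RNA-binding protein gene, averaged 2.94 in the F1, 3.43 in 129S1/SvImJ and 0.48 in C57BL/6J (difference 2.46, SE 0.21, limma adjusted p = 7e-07). L3mbtl4 differed by 2.48 (SE 0.31, adjusted p = 0.00012), with 2.03 on its second probe, and the motor protein gene Myo6 by 1.75 (SE 0.19, limma adjusted p = 1.7e-05), with 0.82 and 1.09 on its other probes. Tmem87a and Ppp4r4 were 3.60-fold and 3.34-fold higher, and with normexp and loess the Tmem87a difference fell from 1.85 to 1.08 (adjusted p = 0.0047). Of the genes dim in 1 group, Pnpla3, a lipid droplet enzyme, was not well above background on any C57BL/6J array. Its log2 ratio differed by 2.84 (SE 0.39, limma adjusted p = 0.00029). By the untested bound described for Sycp3, which holds for that normalisation only, its Cy5 signal was at least 4.50-fold higher in the F1. Ifi202b and Fam25c were well above background on 2 C57BL/6J arrays each and differed by 1.97 (SE 0.28) and 1.60 (SE 0.28). With normexp and loess these dim genes differed by 0.65 for Pnpla3 (adjusted p = 0.12), 0.65 for Ifi202b (adjusted p = 0.045) and 0.48 for Fam25c (limma adjusted p = 0.26).

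A family of near-identical genes on chromosome 14 was also higher: 2610042L04Rik by 2.19 (SE 0.18), Gm10413 by 1.94 (SE 0.24), 4930555G01Rik by 1.70 (SE 0.14) and Gm3696 by 1.55 (SE 0.13), each with a limma adjusted p of 9.4e-05 or smaller. Probes may bind several copies, so the copy that differs is uncertain. The naming rule passed over these clone or predicted names, and the genes were picked after their values were seen.

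Among the lower genes, several lay lowest in 129S1/SvImJ. Ptprg, a receptor phosphatase, averaged 1.49 ± 0.19 (SD, n = 5) in C57BL/6J, 0.55 ± 0.15 (SD, n = 5) in (129S1xB6)F1, 0.53 in (B6x129S1)F1 and -3.53 in 129S1/SvImJ. The difference of the F1 from C57BL/6J was -0.94 (SE 0.13, limma adjusted p = 0.00035), while a second probe of Ptprg gave -0.39. Prim2, the large primase subunit, averaged -0.09, -0.92, -0.83 and -4.02 in the same order of groups (difference -0.83, SE 0.12, limma adjusted p = 0.00035). It was the only call among 23 replication and cell cycle genes. With normexp and loess the calls of Ptprg and Prim2 were lost, at differences of -0.86 and -0.83 (limma adjusted p = 0.10 and 0.11).

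For 2 further genes both hybrids lay at similar values between the strains. Rabl2 differed by -0.86 (SE 0.09, limma adjusted p = 1.7e-05) and the histone gene H4c9 by -0.96 (SE 0.11, adjusted p = 6.4e-05). With normexp and loess Rabl2 differed by -0.66 and lost its call (limma adjusted p = 0.064), while H4c9 kept its call (adjusted p = 0.00019). H4c9 belongs to a multigene family and its value is uncertain in that respect. Fut10 differed by -0.85 on its brighter probe and by -0.06 on the other, with a mean of -0.45. Angptl4, a secreted lipase inhibitor, had a difference of -0.89 (SE 0.17, limma adjusted p = 0.0097), and its mean in 129S1/SvImJ was 1.20 beside 1.51 in the F1 and 2.40 in C57BL/6J. Rab27b, a vesicle-traffic GTPase, differed by -1.35 (SE 0.28, adjusted p = 0.016) on 1 probe, while its 2 other probes were not well above background on 5 and on 10 of the 10 arrays, and with normexp and loess it was -0.53 (adjusted p = 0.10). Zfp933, whose other probes differed by 0.27 and 0.02, lost its call without any of 8 single arrays, and Slc28a2, dim in the F1, without any of 5. Over all calls, 84 genes had a further probe bright enough to read, and for 20 of them at least 1 such probe pointed the other way.

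**Figure D5:**
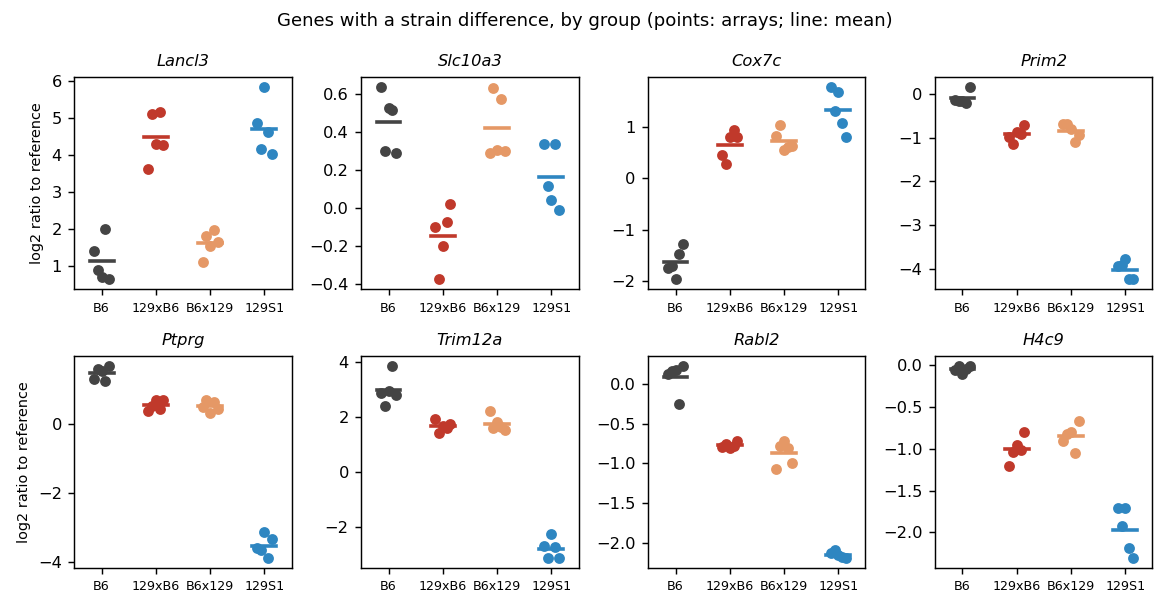
Log2 ratio to the reference pool of 8 genes on each array (points) with group means (lines), from left to right for C57BL/6J, (129S1xB6)F1, (B6x129S1)F1 and 129S1/SvImJ. Lancl3 separates the 2 hybrids, at 4.49 and 1.62, whereas in the lower row the means of both hybrids lie between those of the parental strains.

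Interferon-related genes gave 1 call in each direction among 19 tested in limma, beside 0.708% of all genes tested called higher and 0.425% called lower. With all arrays, H4 included, 12 of the 19 had an unadjusted p under 0.05. Without H4, 2 of the 19 were called higher and 2 lower in limma. Gbp2b, a guanylate-binding protein of interferon-gamma responses, was higher in the F1: it read 4.43, 4.37, 4.08, 4.79 and 5.37, against 2.51, 1.73, 3.16, 2.22 and 0.69 in C57BL/6J (difference 2.54, SE 0.44, limma adjusted p = 0.0036). Without H4 the difference was 2.58 (adjusted p = 0.008). Trim12a, of the TRIM family of antiviral ubiquitin ligases, was lower with a difference of -1.31 (SE 0.22, limma adjusted p = 0.0023), and without H4 it was -1.09 (adjusted p = 0.0024). Its mean in 129S1/SvImJ was -2.80. Isg20, an interferon-induced exonuclease outside the list, differed by -1.55 (SE 0.28, limma adjusted p = 0.0047), by -1.37 without H4 (adjusted p = 0.014) and by -0.95 with normexp and loess (adjusted p = 0.030).

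For 3 classical induced genes the size of the difference moved with H4. Isg15 had a difference of -1.07 with all arrays and -0.17 without H4 (limma adjusted p = 0.71 and 0.80), and Irf7 of -0.97 and -0.34 (adjusted p = 0.48 and 0.10). Ifit3 differed by -1.39 with all arrays (adjusted p = 0.10) and passed without H4, at -0.86 (limma adjusted p = 0.029). The median difference of the list was -0.49 with all arrays and -0.17 without H4.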

How the data were processed

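Each array held RNA of 1 gonad pair in Cy5 against the reference pool in Cy3. Per the file headers, Agilent Feature Extraction 9.1.3.1 wrote the intensity columns used here, processed signals after background subtraction and dye normalisation. The authors also deposited a table of log2 ratios, which correlated with Cy5 over Cy3 at 0.935 to 0.960 on each array (column medians 0.0005 to 0.0417), so that its scale and direction are known but not its exact centring, and which served as an alternative. Values are log2 of processed Cy5 over processed Cy3. Control spots and outlier flags were left out, spots of a probe were averaged, and the brightest probe stood for a gene. Of 41174 probes, 22951 were named by accession, 6659 by symbol, 3109 by synonym and 8455 kept the file's name (through RefSeq, GRCm38.p6).

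Genes entered the tests when 4 or 5 arrays of either group read their probe as well above the Cy5 background. limma 3.58.1 (in R 4.3.3) fitted all 4 groups at once (lmFit and eBayes, 16 residual degrees of freedom), and p-values were adjusted by Benjamini-Hochberg over all 23307 genes, with 0.05 as the threshold. Simulated data with 23307 genes were used to test the fit: it recovered 36% of changes of 0.5, 90% of changes of 1, 84% of changes of -1 and 98% of changes of 2 on the log2 scale. The simulated noise was independent between arrays, with no effect of slide or litter, so these rates hold for noise of that kind only. Arrays have no read depth; their number limits the precision.

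The genes named, the 26 lists and the tests were chosen with earlier results of these data known, and a list's counts are no independent evidence of its direction. The naming rule took the 12 largest non-overlapping calls per direction among bright genes, 3 dim ones and called list members. It also took the testis, ovary and WNT lists, the nearest 3 members of other lists, and 6 X-linked and 3 Y-linked genes. Genes outside that rule were picked after their values were seen. The labels say that samples came from several litters without naming them. The letters of the array names (L and M in the F1, H and K in C57BL/6J) do not occur in both groups, so a shared origin of arrays with a letter and the group cannot be told apart. Values of 1 further gene of the interferon and TRIM list are not reported here.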

Additional observations from a re-analysis of the deposited data

Results flagged for a closer look

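For each gene printed and for 6 lists, each group of 5 arrays was checked for an array whose gap to its nearest neighbour exceeded 0.71 of the group's range, a limit that chance passes in about 1 of 20 groups. With 236 pairs of a group and a gene or list checked, several flags are due to arise by chance, and a single flag is a description only. Array H4 of C57BL/6J was set apart most often. It was high for Isg15 (4.95, the others 0.23 to 0.89), Ifit3 (3.44), Irf7 (3.61) and the mean of the interferon and TRIM list (3.28, the others 1.09 to 1.26). The same array was low for Kit (-0.58), Tfap2c (-0.48), Dmc1 (0.72), Rabl2 (-0.25) and Sdhb (-0.86).

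Array K2 of C57BL/6J was high for Ddx4 (4.34) and Prim2 (0.17). In (129S1xB6)F1, array L1 was high for Ren2 (2.96) and low for Copg2 (-0.25), and array M6 was high for Zfy2 (0.98).

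The 2 hybrid crosses differed by a test of the difference for Lancl3 (2.88 higher in (129S1xB6)F1) and BC022654 (-0.95). Lancl3 passed that test in 19 of 22 alternative fits and BC022654 in 20 of 23, without a change of sign. These counts include fits that could not change the difference, which stayed at 2.88 and -0.95. Such fits left out a C57BL/6J array, changed only the gene filter or averaged the probes of a gene. The calls of Lancl3 and BC022654 were lost with normexp and loess, on slides with both groups, and without slides 5 and 1.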

How the results depend on the processing

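No paired analysis was possible because the labels do not say that arrays of the 2 groups belong together: the names join a letter and a number, no letter occurs in both groups, and the number alone is not unique (H2 and K2). Slides were fitted as a block instead, which gave 186 calls. Of the 58 called genes named, all kept their direction in every alternative fit (up to 24 per gene), and 6 kept their call in each of them. These genes were called on the same arrays, and fits that changed only the gene filter could not change a difference. The kept direction is therefore a description only, and for Sycp3 the difference in the deposited log2 ratios was 0.0044. The count of 264 genes called between (129S1xB6)F1 and C57BL/6J fell to 27 on slides that hold both groups with the slide as a block, to 126 with the name letter as a random block, to 124 without both slide 5 arrays of the F1 and to 72 without all slide 5 and slide 1 arrays. It was 397 with array weights, and ran from 180 to 283 when 1 array was left out. With normexp and loess it was 178 (113 higher and 65 lower). The 2 calls between hybrids became 0 with normexp and loess, 0 on slides with both groups, 0 without slides 5 and 1, and 1 when every array had to be well above background; at an unadjusted p under 0.05 there were 583, 993, 828 and 710 genes. Between the hybrids, leaving out each (129S1xB6)F1 array gave 2 calls; no (B6x129S1)F1 array was left out.

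Called germ cell genes numbered 3 with normexp and loess, 3 in a fit of the 10 arrays alone, 2 with the letter block, 0 on slides with both groups (21 at an unadjusted p under 0.05), 2 without both slide 5 arrays of the F1, 2 without slides 5 and 1, and 2 to 6 with 1 array left out; the settings without slide 5 were added after seeing the data. The sign turned for uncalled genes near 0. Sox9 became 0.105 with the slide as a block, 0.20 on slides with both groups, 0.25 as the mean of its probes, 0.081 with array weights, 0.23 without both slide 5 arrays of the F1, 0.20 without slides 5 and 1, and -0.26 to 0.12 with 1 array left out. Disc1 became -0.020 as the mean of its probes. With 1 array left out, Dmrt1 ran from -0.12 to 0.14 and Wt1 from -0.15 to 0.0345. Signal over background limits Sycp3 and Pnpla3, which are known only as bounds in C57BL/6J. The cause of these changes was not tested, except that fewer arrays enter the fits that leave some out.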
